A study of Chlorocebus sabaeus with 12 samples.

Results

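The genes described here are 36 immediate early and ERK feedback genes: the AP-1 factors, the EGR, KLF and MYC factors, other early response proteins, the MAP kinase phosphatases, the Sprouty and SPRED inhibitors, and the PEA3 factors. They were picked by name, for what they are known to do, and each was read from the brightest of its probes on the array. All 36 were among the 30982 names on the array, with 58 probes, and 34 were bright enough to be tested. EGR3, an early growth response factor, was well above background on 2 of 12 arrays, and DUSP7, a phosphatase of ERK, on 3 of 12, and neither was tested.

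The arrays came from COS-1 cells, a kidney line of the African green monkey. The cells had transiently expressed human FXR (NR1H4), the nuclear receptor for bile acids, for 24 h. A serine of the receptor was changed either to aspartate (S154D), whose charge resembles a phosphate, or to alanine (S154A), which cannot be phosphorylated. The medium then held 50 mM chenodeoxycholic acid (CDCA), a bile acid that activates FXR, or 0.1% DMSO, the vehicle, for 24 h. The dose is printed as labelled, and it is uncertain whether its unit is right or micromolar was meant. The groups S154D_CDCA, S154D_DMSO, S154A_CDCA and S154A_DMSO had 3 one-colour arrays each. All 4 groups carry a mutant receptor, and no array held wild-type FXR or untransfected cells. The share of cells transfected is not given in the sources used here. Nothing in the labels says that replicates were separate cultures, so p-values measure the spread between arrays, which may be technical. NR1H4 lay at 7.46 to 7.95 on the 12 arrays, in log2 units above the 75th percentile of each array, the scale of every level given here.

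Immediate early genes are transcribed within minutes of a growth factor signal, without new protein synthesis, when ERK activates factors such as ELK1 and SRF at their promoters. Most of their transcripts decay quickly, and many encode transcription factors. A slower set, which includes the phosphatases DUSP4 to DUSP6, the Sprouty and SPRED proteins and the PEA3 factors, also rises with ERK activity, and several of its members switch the pathway off again. FGF19, which FXR induces in ileum, signals to ERK through FGF receptors, in liver FGFR4 with the coreceptor beta-Klotho (KLB). The 24 h of treatment is later than the early peak of such genes after a single stimulus.

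Between 61.6% and 79.8% of an array's spots exceeded the background clearly, and the 75th percentile of the signal lay between 1234 and 2107 intensity units. The number of arrays limits the precision. Monkey RNA met human probes, and 34 of the 36 member names are also RefSeq symbols of the green monkey assembly mChlSab1.0.hap1. The exceptions, CYR61 and CTGF, are older names. As for the cell type, 7 of 9 mesenchymal and 8 of 9 epithelial marker genes were well above background on all 12 arrays. So were 3 of 7 hepatocyte markers, with APOB on none, and 4 of 7 leukocyte markers, with PTPRC on none.

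CDCA induced FGF19 with S154A, at least 23.9-fold (limma adjusted p = 0.012), and its level averaged -1.15 ± 0.21 in S154A_CDCA and -7.18 ± 0.75 in S154A_DMSO (SD, n = 3), where no array was well above background. With S154D the log2 change of FGF19 was 0.20 ± 0.76 (SE, adjusted p = 0.886), with 1 of 3 CDCA and 1 of 3 DMSO arrays well above background. FABP6, the ileal bile acid-binding protein, changed by 7.08 ± 0.57 with S154A (adjusted p = 0.000621) and by 0.16 ± 0.57 with S154D (adjusted p = 0.879), where 2 of 3 CDCA and 1 of 3 DMSO arrays were well above background, so for both genes the S154D value was set close to background. KLB was well above background on 0 of 12 arrays and FGFR4 on 12 of 12.

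With S154A, where FGF19 rose, none of the 34 early and feedback genes was called, at an adjusted p under 0.05 in limma over 20355 genes, of which 0.133% were called. With S154D, EGR2 and KLF10 rose by 0.61 ± 0.15 and 0.80 ± 0.20 log2 units (SE, n = 3 per group), or 1.52-fold and 1.74-fold. These were 2 of 34 members, while 10.2% of all genes tested were called in that comparison and 6.45% were called higher. Between the mutants, S154D against S154A, 0 of 34 were called in CDCA (0.403% of all genes) and 0 of 34 in DMSO (0% of all genes). None was called when the S154A response to CDCA was subtracted from that of S154D (0.147% of all genes). These are bulk measurements, in which fewer responding cells and less RNA per cell cannot be told apart.

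An unadjusted p under 0.05 was found for 6 of 34 members with S154D (17.6%, against 30% of all genes) and for 2 with S154A (5.88%, against 6.04%). In the comparison of S154D with S154A there were 5 in CDCA (14.7%, against 23.6%) and 4 in DMSO (11.8%, against 4.34%). For the difference between the responses there were 5 (14.7%, against 22.4%). The arrays of both groups did not overlap for 10 members with S154D (29.4%, against 33.6% of all genes), 9 of them higher in CDCA (20% of all genes) and 1, FOS, lower (13.6%). With S154A they did not for 6 (17.6%, against 11.8%), of which FOS was higher (3.69%) and 5 were lower (8.15%): BTG2, CTGF, SPRY1, SPRY4 and ETV1. In the comparison of S154D with S154A in CDCA there were 8 (23.5%, against 28.5%), 4 higher (20.9%) and 4 lower (7.62%). In DMSO there were also 8 (23.5%, against 10.9%), 0 higher (4.78%) and 8 lower (6.17%). Those 8, lower with S154D in DMSO, were FOSB, EGR2, MYC, KLF10, CTGF, SPRY2, SPRED1 and ETV5, and 0 of 20355 genes were called there. The S154A_DMSO arrays all sat at the first position of their slides. Of the 8, MYC, SPRED1 and ETV5 had a second kept probe. It gave 0.07, -0.08 and 0.00 in the DMSO comparison, beside -0.08, -0.31 and -0.38 on the probe used. That comparison moved with the share of G and C in the probe (GC), with a Spearman correlation of 0.31 over all genes and 0.41 over the members, whose probes had a median GC of 41.7% against 45% over all genes. After the correction for probe GC, described with the probes, 1 of 34 members had an unadjusted p under 0.05 in place of 4, and the part of base composition in these counts was not tested. The median log2 change over the members was 0.05 with S154D, beside -0.01 over all genes, and -0.02 with S154A, beside -0.04. With higher and lower counted together, the members' shares with S154D were below those of all genes for calls, for unadjusted p and for arrays that did not overlap. By direction this did not hold for arrays that did not overlap, where 9 of 34 members were higher with S154D, beside 20% of all genes. At an unadjusted p under 0.05, 6 of 34 members and 3628 of 20355 genes were higher with S154D, and 0 members and 2474 genes were lower. There the members' share was below that of all genes in either direction. The differences between these shares were not tested. The comparisons of one mutant or one treatment share arrays with each other.

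**Figure D1:**
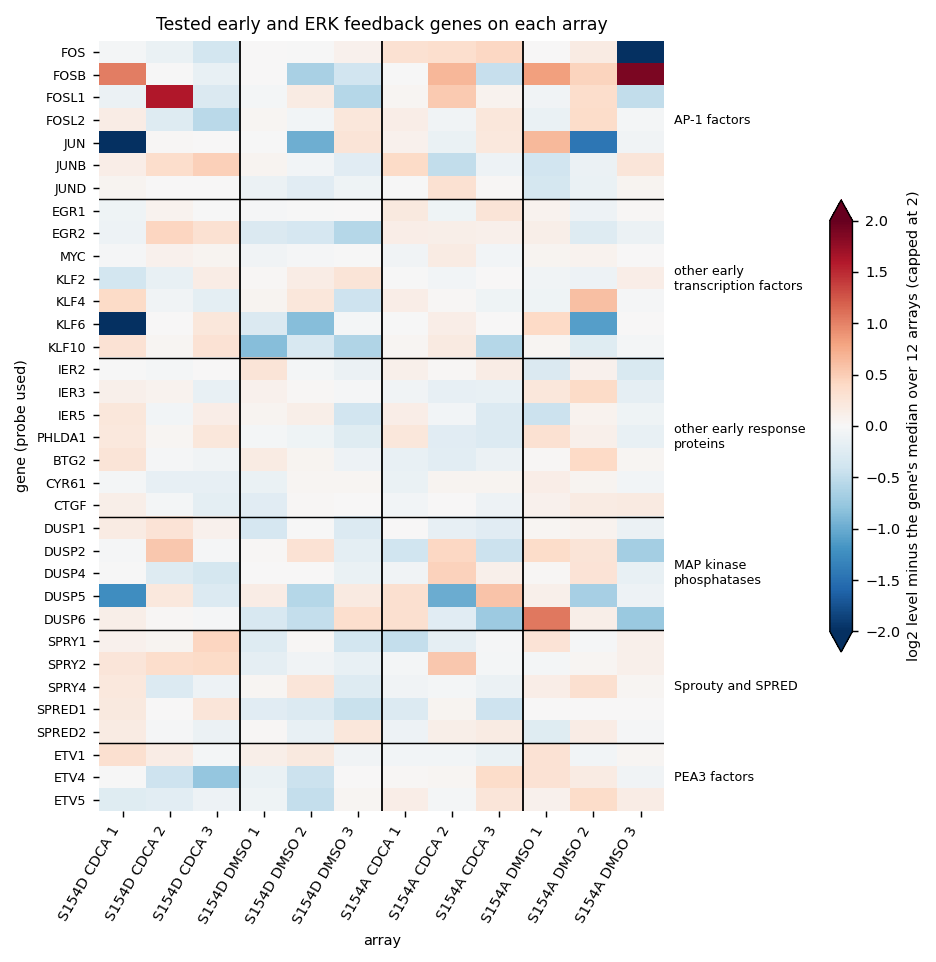
Level of each of the 34 tested members on each of the 12 arrays, as the log2 difference from the gene's own median, capped at 2 either way; columns are arrays by group, rows are genes by role. Most squares are pale, and the squares furthest from their gene's median stand on single arrays, among them JUN and KLF6 on S154D_CDCA 1 and S154A_DMSO 2, DUSP5 on S154D_CDCA 1, FOS and FOSB on S154A_DMSO 3, and FOSL1 on S154D_CDCA 2.

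The response with S154D moved with the base composition of the probe. Over all 20355 genes the log2 change with S154D had a Spearman correlation of -0.56 with the percentage of G and C in the probe, and over the 34 members -0.50. With S154A it was -0.11 over all genes and 0.11 over the members. These are descriptions across probes that share the same arrays, without a test. Genes with probes of 35% to under 40% GC had a median change of 0.30 with S154D, and 18.2% of them were called higher, while genes with probes of 55% to under 60% GC had a median of -0.27 and 0.0823% were called higher. EGR2 and KLF10 both had probes of 35% GC. So had SPRED1, DUSP1 and SPRY1, the members next in rank apart from SPRY2 at 43.3%. After a correction for probe GC, EGR2 stood at 0.27 (adjusted p = 0.306) and KLF10 at 0.47 (adjusted p = 0.228), and 0 of 20355 genes were called with S154D, where 18.5% had an unadjusted p under 0.05. The part of base composition in the calls was not tested.

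The first 30 bases of the 60-base probes of some members are printed with G and C in capitals, as they stand in the scanner files. They show probes with a positive change with S154D and, for JUNB and IER5, another probe of the same gene with a negative change. The other kept probe of SPRED1, also of 35% GC, gave 0.58 and is not printed. EGR2 has 1 probe, and the paired probes of JUNB and IER5 gave the widest gaps in response among the members with several probes.
EGR2, 35% GC, change 0.61: aaGaatGtaCataatGttaCCGGaGCtGat
SPRED1, 35% GC, change 0.45: taCtGtttatatatttGaatGCtGCtaCaa
JUNB, 25% GC, change 0.40: attttaaGaCGtGtttGtGtttGtGtGtGt
JUNB, 55% GC, change -0.74: GCtttGtCaaaGCCCtGGaCGatCtGCaCa
IER5, 41.7% GC, change 0.17: atGGtGaCtCCaGtCtttGttGtataaaGG
IER5, 66.7% GC, change -1.50: tCGaCCCCGCtCaaGaaGCCCCGCCGGaaC
The richer IER5 probe also gave -1.04 with S154A. On build hg17 of the human genome, on which the files place the probes, the EGR2 probe lies at chr10:64241856-64241915 on the minus strand and the SPRED1 probe at chr15:36433052-36433111 on the plus strand. The JUNB probes lie on the plus strand at chr19:12765047-12765106 and chr19:12763998-12764057. The IER5 probes lie on the plus strand at chr1:177791492-177791551 and chr1:177790401-177790460. Whether a probe falls in an exon or a UTR was not looked up here, since no annotation of that build was used.

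More than 1 probe was kept for 14 members, and 10 of them had a pair whose GC content differed by at least 5 points. In 8 of those 10 pairs the probe richer in G and C had the lower change with S154D, with a median difference of -0.45, against 4 of 10 pairs and a median of 0.04 with S154A. PHLDA1, for example, gave 0.28 from a probe of 36.7% GC and -0.53 from one of 55%, and MYC gave 0.07 and -0.55. FOSL2 gave -0.29 from the probe used, of 43.3% GC, and -0.75 from one of 60%, but the third probe, also of 43.3%, gave 0.25, so probes of equal GC differed as well. IER2 and ETV4 were the exceptions. In each of these 10 pairs the richer probe also lay upstream of the other on the gene's strand. In every pair but that of IER2 it was the dimmer of the pair as well. GC, place in the gene and signal level therefore cannot be told apart in these pairs. The 2 kept probes of SPRED1 both had 35% GC and gave 0.45 and 0.58.

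**Figure D2:**
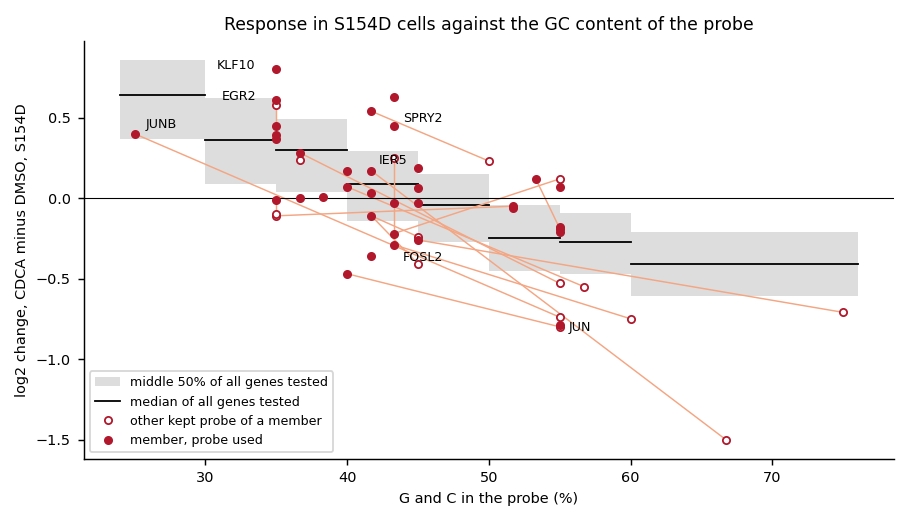
Log2 change with CDCA in S154D cells against the percentage of G and C in the probe, for the probe used for each member (filled points) and its other kept probes (open points, joined to it); black bars and grey bands are the median and the middle 50% of all genes tested in each range of GC. The medians are 0.64 below 30% GC and -0.41 at 60% and above, falling at each step between, and EGR2 and KLF10 lie above the band of the genes from 35% to under 40% GC.

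Among the AP-1 factors, which pair as FOS and JUN proteins to bind DNA, none of 7 was called in any comparison. JUNB, a partner of FOS proteins, had 1.96, 2.17 and 2.30 in S154D_CDCA, 1.87, 1.77 and 1.60 in S154D_DMSO, 2.20, 1.33 and 1.72 in S154A_CDCA and 1.43, 1.71 and 2.06 in S154A_DMSO. The 3 S154D_CDCA arrays lay above the 3 S154D_DMSO arrays (0.40 ± 0.22, adjusted p = 0.264) on this probe of 25% GC, and below them on the probe of 55% GC, with -3.14, -3.35 and -3.95 in S154D_CDCA against -2.70, -2.93 and -2.60 in S154D_DMSO. JUND, the most steadily expressed JUN protein, had 4.43, 4.39 and 4.39 in S154D_CDCA, 4.25, 4.15 and 4.29 in S154D_DMSO, 4.36, 4.68 and 4.40 in S154A_CDCA and 4.02, 4.24 and 4.43 in S154A_DMSO. With S154A the arrays overlapped (0.25 ± 0.13, adjusted p = 0.858), and with S154D they did not, CDCA being the higher by 0.17 ± 0.13 (adjusted p = 0.386). FOSL2 and FOSL1, FOS relatives that rise later, had changes of -0.29 ± 0.19 and 0.54 ± 0.44 with S154D and 0.04 ± 0.19 and 0.29 ± 0.44 with S154A. For FOSL1 array S154D_CDCA 2 stood at -2.47 and the other 11 between -4.63 and -3.54, and without it the S154D change was -0.06.

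FOSB, the FOS relative whose splice form deltaFosB is long-lived, was close to background: it was well above it on 3 S154D_CDCA, 1 S154D_DMSO, 2 S154A_CDCA and 3 S154A_DMSO arrays. Its levels were -4.92, -5.95 and -6.10 in S154D_CDCA, -5.94, -6.59 and -6.33 in S154D_DMSO, -5.95, -5.28 and -6.40 in S154A_CDCA and -5.13, -5.50 and -4.07 in S154A_DMSO. In DMSO the 3 S154D arrays lay below the 3 S154A arrays, by -1.39 ± 0.43, which had the smallest p of any member there (limma adjusted p = 0.996). That difference was -0.80 within slide 1 and -2.26 within slide 3, and -0.97 without S154A_DMSO 3. With S154A the change with CDCA was -0.98 ± 0.43 (adjusted p = 0.827), and -0.56 without the same array.

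FOS, the founding immediate early gene, had -1.87, -1.96 and -2.20 in S154D_CDCA, -1.83, -1.84 and -1.74 in S154D_DMSO, -1.52, -1.50 and -1.41 in S154A_CDCA and -1.83, -1.67 and -4.04 in S154A_DMSO. One array, S154A_DMSO 3, stood far below the rest. The change with S154A was 1.04 ± 0.49 (adjusted p = 0.838) with that array and 0.28 ± 0.13 (adjusted p = 0.635) without it. FOS had 1 spot, and on S154A_DMSO 3 27% of the 185 spots within 10 rows and 10 columns of it lay more than 1 log2 unit below their median over the arrays, against 0% to 7.57% on the other 11 arrays. The part of that area in the FOS value was not tested. The 3 S154A_CDCA arrays lay above both other S154A_DMSO arrays and above all 6 S154D arrays, by less than 1 log2 unit.

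JUN, the main partner of FOS, had -1.38, 1.79 and 1.77 in S154D_CDCA, 1.75, 0.78 and 2.01 in S154D_DMSO, 1.84, 1.63 and 1.97 in S154A_CDCA and 2.41, 0.32 and 1.69 in S154A_DMSO. The low arrays were S154D_CDCA 1, S154D_DMSO 2 and S154A_DMSO 2, each in another group. S154D_CDCA 1, where JUN and KLF6 were lowest, also had 423 of 23073 compared spots more than 2 log2 units below the median of the other arrays, the most of the 12 arrays, and the part of this in their values was not tested. JUN was printed in 10 spots, and on S154D_CDCA 1 all 10 lay between -1.47 and -1.34, so the low value did not come from 1 spot. KLF6, a zinc finger factor of the early response, was low on the same arrays: it had -2.16, 0.66 and 0.88 in S154D_CDCA, 0.37, -0.20 and 0.62 in S154D_DMSO, 0.65, 0.78 and 0.66 in S154A_CDCA and 1.05, -0.44 and 0.66 in S154A_DMSO. A second KLF6 probe was lowest on the same 3 arrays, at -3.64 on S154D_CDCA 1, -1.62 on S154D_DMSO 2 and -1.98 on S154A_DMSO 2, and between -1.14 and -0.63 elsewhere. Of 20242 genes with a value on all arrays, 1008 (4.98%) were lower on all 3 of these arrays than on any of the other 9, and 134 by at least 0.5. JUN and KLF6 were the only members among either number. The change of JUN with S154D was -0.79 ± 0.80, and 0.26 without S154D_CDCA 1. That of KLF6 was -0.47 ± 0.69, and 0.51 without it.

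**Figure D3:**
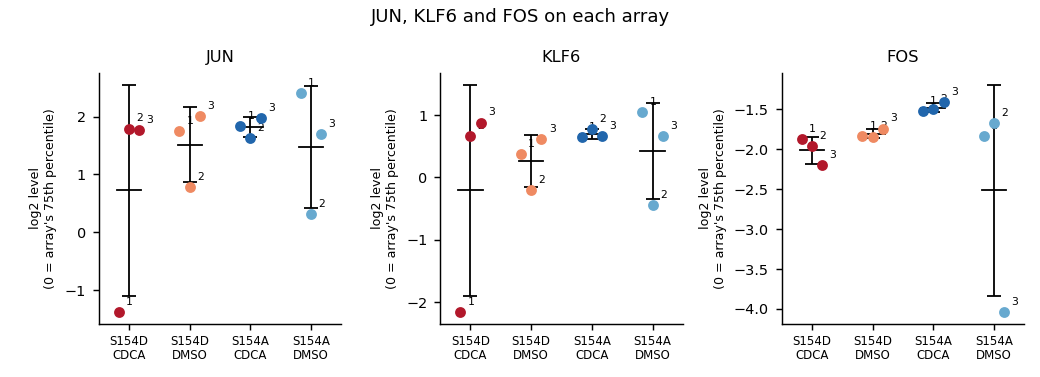
Log2 level of JUN, KLF6 and FOS on each of the 12 arrays by group, with replicate numbers beside the points; bars are the mean and the SD of 3 arrays, and each panel has its own scale. JUN and KLF6 are low together on S154D_CDCA 1, S154D_DMSO 2 and S154A_DMSO 2, and FOS is at -4.04 on S154A_DMSO 3.

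EGR2 and KLF10, the called pair, belong to the other early transcription factors, of which 2 of 7 tested rose with S154D, beside 6.45% of all genes called higher, and 0 were called elsewhere. After the correction for probe GC 0 of the 7 were called, and their median change was -0.06 in place of 0.07. EGR2, an early growth response factor known best from Schwann cells, had -4.38, -3.85 and -3.97 in S154D_CDCA, -4.57, -4.61 and -4.85 in S154D_DMSO, -4.15, -4.17 and -4.18 in S154A_CDCA and -4.16, -4.54 and -4.39 in S154A_DMSO. The 3 S154D_CDCA arrays lay above the 3 S154D_DMSO arrays, which were the lowest of all 12 (adjusted p = 0.0383). Within slide 3, the only slide with both S154D groups, 1 array of each, the change was 0.99. S154D_CDCA 1 and 3 sat on slide 2, and S154D_DMSO 1 and 2 on slides 1 and 4. Among the S154D arrays outside slide 3, treatment and slide therefore cannot be told apart. Between the treatments in S154A cells the arrays overlapped (0.20 ± 0.15, adjusted p = 0.91), and the difference between the responses was 0.41 ± 0.22 (adjusted p = 0.287).

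KLF10, a repressor first found as an early gene of TGF-beta, had 0.01, -0.23 and 0.02 in S154D_CDCA, -1.13, -0.59 and -0.88 in S154D_DMSO, -0.23, -0.09 and -0.84 in S154A_CDCA and -0.24, -0.52 and -0.31 in S154A_DMSO. Here too the S154D_CDCA arrays lay above the S154D_DMSO arrays without overlap (adjusted p = 0.0386), with 0.64 within slide 3. The S154D_DMSO arrays also lay below the S154A_DMSO arrays, by -0.51 ± 0.20 (adjusted p = 0.996). With S154A the change was -0.03 ± 0.20, and the difference between the responses was 0.83 ± 0.28 (adjusted p = 0.14). Over 31 alternative settings EGR2 was called in 10 and KLF10 in 11. The adjusted p of EGR2 lay between 0.0193 and 0.43 and that of KLF10 between 0.0279 and 0.405. The EGR2 probe was dim, between -4.85 and -3.85, though well above background on all 12 arrays. With normexp background correction, which added an offset of 50, EGR2 changed by 0.19 (adjusted p = 0.384). The part of the dim signal in that value was not tested. The changes of EGR2 and KLF10 stayed above 0 in all 31 settings.

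Both calls also depended on single arrays. When any 1 array was left out, the change of EGR2 was 0.50 to 0.76 and it was called in 5 of 12 fits, and that of KLF10 was 0.67 to 0.94 and it was called in 4 of 12. Neither was called without S154D_DMSO 1, S154D_DMSO 3, S154D_CDCA 2, S154D_CDCA 3, S154A_DMSO 3 or S154A_CDCA 1. In that order, these fits called 1, 0, 722, 0, 978 and 1251 of all 20355 genes, beside 2073 with all arrays. The calls over all genes thus fell in the same fits. With slide as a block the changes were 0.86 and 0.87 (adjusted p = 0.138 for each), and 0 of 20355 genes were called.

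EGR1, the most used readout of ERK in this family, had a change of 0.00 with S154D, within -0.24 to 0.24 at 95%, and of 0.12 with S154A (-0.12 to 0.37). After the correction for probe GC, its probe having 36.7%, the change with S154D was -0.27 ± 0.10 (adjusted p = 0.209), outside the first of these intervals, so its value with S154D depended on that step. MYC, measured in 10 spots, was as narrow: 0.07 with S154D (-0.14 to 0.27) and -0.03 with S154A (-0.23 to 0.18). KLF2, a factor of vessels and T cells, had -0.09, 0.13 and 0.43 in S154D_CDCA, 0.30, 0.42 and 0.54 in S154D_DMSO, 0.26, 0.22 and 0.29 in S154A_CDCA and 0.21, 0.18 and 0.41 in S154A_DMSO. Its S154D arrays overlapped (-0.26 ± 0.14, adjusted p = 0.222). KLF4, a factor of epithelia and stem cells, changed by 0.07 ± 0.23 with S154D and -0.13 ± 0.23 with S154A, neither called.

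**Figure D4:**
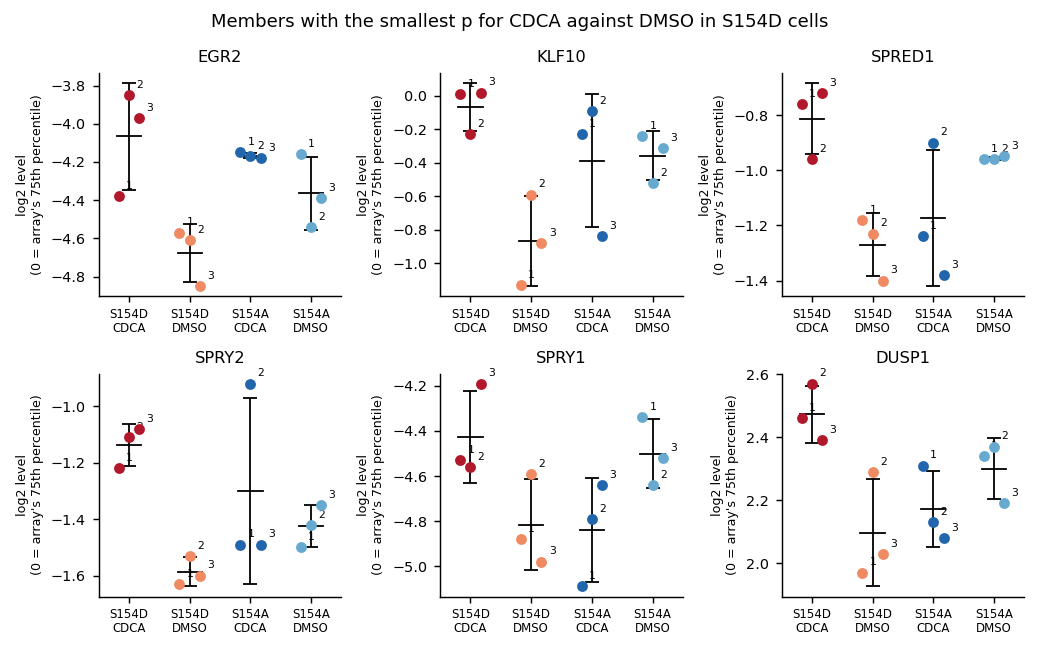
Log2 level of the 6 members with the smallest p for CDCA against DMSO in S154D cells, on each of the 12 arrays by group, with replicate numbers beside the points; bars are the mean and the SD of 3 arrays, and each panel has its own scale. In every panel the 3 S154D_CDCA points lie above the 3 S154D_DMSO points, and the S154A groups overlap in all panels but that of SPRY1, where CDCA lies lower.

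Of the 7 other early response proteins none was called. BTG2, an antiproliferative early gene, had 0.70, 0.43 and 0.38 in S154D_CDCA, 0.62, 0.51 and 0.35 in S154D_DMSO, 0.30, 0.24 and 0.34 in S154A_CDCA and 0.47, 0.85 and 0.49 in S154A_DMSO. Its 3 S154A_CDCA arrays were below the 3 S154A_DMSO arrays, by -0.31 ± 0.13, which had the smallest p of the members with S154A (limma adjusted p = 0.827). CTGF, a matrix protein and YAP target, had 0.55, 0.39 and 0.24 in S154D_CDCA, 0.21, 0.45 and 0.43 in S154D_DMSO, 0.37, 0.43 and 0.33 in S154A_CDCA and 0.51, 0.60 and 0.61 in S154A_DMSO. There too the S154A_CDCA arrays were the lower ones (-0.20 ± 0.11, adjusted p = 0.877). The S154A_DMSO arrays all sat at the first position of their slides, so that position and that group cannot be told apart. CYR61, a relative of CTGF, changed by -0.11 ± 0.10 with S154D and -0.05 ± 0.10 with S154A.

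IER2, a nuclear early protein, had 4.23, 4.20 and 4.25 in S154D_CDCA, 4.50, 4.20 and 4.13 in S154D_DMSO, 4.34, 4.27 and 4.39 in S154A_CDCA and 3.95, 4.32 and 3.93 in S154A_DMSO. IER3, which acts on survival and on ERK, had 1.30, 1.27 and 1.05 in S154D_CDCA, 1.29, 1.23 and 1.18 in S154D_DMSO, 1.14, 1.04 and 1.06 in S154A_CDCA and 1.43, 1.59 and 1.02 in S154A_DMSO. In both genes the groups overlapped under either mutant, with changes of 0.27 ± 0.13 and -0.27 ± 0.14 with S154A (adjusted p = 0.852 and 0.868). PHLDA1, an early gene with a pleckstrin homology-like domain, had -2.32, -2.50 and -2.31 in S154D_CDCA, -2.57, -2.62 and -2.77 in S154D_DMSO, -2.31, -2.76 and -2.81 in S154A_CDCA and -2.23, -2.43 and -2.69 in S154A_DMSO. The S154D arrays did not overlap (0.28 ± 0.16, adjusted p = 0.273), with 0.01 after the correction for probe GC. IER5, a regulator of the heat shock response, changed by 0.17 ± 0.18 with S154D on the probe used. Its second probe, of 66.7% GC, had 2.78, 0.00 and -0.95 in S154D_CDCA and 1.65, 2.95 and 1.71 in S154D_DMSO, a spread wider than its change of -1.50. As given beside its sequence, the mean of that probe was lower in CDCA under both mutants.

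The MAP kinase phosphatases remove phosphate from ERK and related kinases, and none of the 5 tested was called. DUSP1, the nuclear early phosphatase, had 2.46, 2.57 and 2.39 in S154D_CDCA, 1.97, 2.29 and 2.03 in S154D_DMSO, 2.31, 2.13 and 2.08 in S154A_CDCA and 2.34, 2.37 and 2.19 in S154A_DMSO. The S154D_CDCA arrays were the highest of all 12, above S154D_DMSO by 0.37 ± 0.11 (adjusted p = 0.0621) and above S154A_CDCA by 0.30 ± 0.11 (adjusted p = 0.16). The first of these changes was 0.53 within slide 3 and 0.04 after the correction for probe GC. DUSP4, a nuclear phosphatase that ERK induces, had -1.71, -1.96 and -2.05 in S154D_CDCA, -1.68, -1.68 and -1.83 in S154D_DMSO, -1.76, -1.23 and -1.59 in S154A_CDCA and -1.67, -1.42 and -1.84 in S154A_DMSO. In CDCA it differed by -0.38 ± 0.16 between S154D and S154A (adjusted p = 0.186), with 1 overlapping pair of arrays.

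DUSP6, the cytoplasmic phosphatase that is the standard transcript readout of FGF signalling to ERK, had -4.41, -4.49 and -4.55 in S154D_CDCA, -4.84, -5.00 and -4.18 in S154D_DMSO, -4.20, -4.74 and -5.25 in S154A_CDCA and -3.47, -4.41 and -5.27 in S154A_DMSO. All groups overlapped, and its change with S154A, -0.35 ± 0.41, was -1.78 within slide 1 and 1.07 within slide 3, and its 95% interval in the fit over all 12 arrays, without slides, was -1.27 to 0.57. DUSP5, the nuclear phosphatase of ERK, changed by -0.36 ± 0.46 with S154D and 0.18 ± 0.46 with S154A. DUSP2, the early phosphatase of lymphocytes, changed by 0.12 ± 0.32 and -0.12 ± 0.32.

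Sprouty and SPRED proteins block the route from receptor tyrosine kinases to RAS and RAF. Of the 5 members none was called, but 3 had an unadjusted p under 0.05 with S154D, SPRED1, SPRY2 and SPRY1, beside 30% of all genes, and all 3 were higher in S154D_CDCA. After the correction for probe GC 1 of the 5 had such a p, and the median change of the 5 was 0.12 in place of 0.39. SPRED1, which recruits neurofibromin to RAS, had -0.76, -0.96 and -0.72 in S154D_CDCA, -1.18, -1.23 and -1.40 in S154D_DMSO, -1.24, -0.90 and -1.38 in S154A_CDCA and -0.96, -0.96 and -0.95 in S154A_DMSO. Its change with S154D was 0.45 ± 0.13 (adjusted p = 0.0539), and it was called in 8 of 31 alternative settings, with 0.12 after the correction for probe GC. The difference between the responses was 0.67 ± 0.19, with the smallest p of any member there (limma adjusted p = 0.1), and 0.34 after that correction.

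SPRY2, an inhibitor induced by FGF in many tissues, had -1.22, -1.11 and -1.08 in S154D_CDCA, -1.63, -1.53 and -1.60 in S154D_DMSO, -1.49, -0.92 and -1.49 in S154A_CDCA and -1.50, -1.42 and -1.35 in S154A_DMSO. The S154D groups were apart, by 0.45 ± 0.15 (adjusted p = 0.0717), and after the correction for probe GC the change was 0.43 (adjusted p = 0.193), the member whose value that step moved least among the 6 with the smallest p. SPRY1, its relative, had -4.53, -4.56 and -4.19 in S154D_CDCA, -4.88, -4.59 and -4.98 in S154D_DMSO, -5.09, -4.79 and -4.64 in S154A_CDCA and -4.34, -4.64 and -4.52 in S154A_DMSO. It lay higher in S154D_CDCA than in S154D_DMSO (0.39 ± 0.16, adjusted p = 0.137; 0.05 after the correction for probe GC) and lower in S154A_CDCA than in S154A_DMSO (-0.34 ± 0.16, adjusted p = 0.838). The difference between these responses was 0.73 ± 0.23 (adjusted p = 0.12), and 0.40 after that correction. SPRY4 and SPRED2 changed by -0.06 ± 0.16 and -0.03 ± 0.14 with S154D, and by -0.24 ± 0.16 and 0.10 ± 0.14 with S154A.

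The PEA3 factors are ETS proteins whose transcripts follow FGF signalling in embryos, and none of the 3 was called. ETV4 had -3.67, -4.08 and -4.43 in S154D_CDCA, -3.79, -4.09 and -3.65 in S154D_DMSO, -3.64, -3.62 and -3.29 in S154A_CDCA and -3.37, -3.49 and -3.73 in S154A_DMSO. ETV5 had -2.74, -2.71 and -2.60 in S154D_CDCA, -2.59, -2.98 and -2.46 in S154D_DMSO, -2.37, -2.54 and -2.26 in S154A_CDCA and -2.41, -2.14 and -2.35 in S154A_DMSO. Both lay lower with S154D than with S154A in CDCA, without overlap, by -0.54 ± 0.20 and -0.29 ± 0.14 (adjusted p = 0.149 and 0.247). A second kept ETV4 probe, of 55% GC, gave -0.02 there, so the ETV4 difference stood on 1 of its 2 kept probes. In DMSO ETV5 was also lower, by -0.38 ± 0.14 (adjusted p = 0.996), and ETV4 overlapped. A second kept ETV5 probe, of 35% GC like the probe used, gave 0.00 in DMSO and -0.66 in CDCA. ETV1 had -4.46, -4.63 and -4.82 in S154D_CDCA, -4.66, -4.58 and -4.85 in S154D_DMSO, -4.83, -4.83 and -4.92 in S154A_CDCA and -4.49, -4.83 and -4.74 in S154A_DMSO. It pointed the other way in CDCA, at 0.22 ± 0.13 (adjusted p = 0.312). None of the 3 changed with CDCA at the threshold under either mutant, with changes between -0.22 and 0.06 on the probes used. With S154D and S154A the second kept probes gave 0.12 and 0.03 for ETV4, and -0.10 and 0.56 for ETV5.

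**Figure D5:**
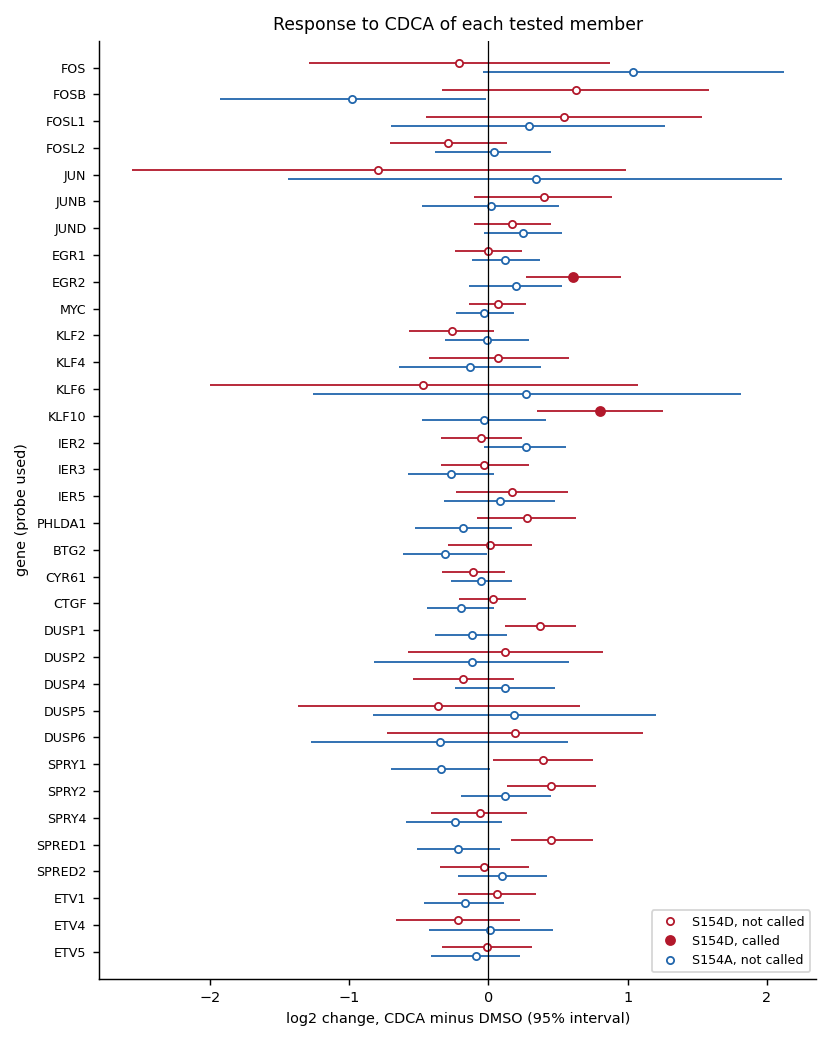
Log2 change with CDCA, CDCA minus DMSO, of each of the 34 tested members in S154D cells (red, upper line of each pair) and in S154A cells (blue, lower line), with the 95% interval of the fit; filled points are called. Only EGR2 and KLF10 in S154D cells are filled, and JUN, KLF6 and FOS have the widest intervals.

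Other genes of the pathway are read against the 10.2% of all genes called with S154D, 6.45% being called higher. Of the 20355 genes, 1312 were called higher and 761 lower. Of 23 tested from the receptor to ERK, 0 were higher and 3 lower with S154D: FGFR4 (-0.76 ± 0.18, adjusted p = 0.0342), the RAF kinase ARAF (-0.54 ± 0.15, adjusted p = 0.0483) and the ERK kinase MAP2K2 (-0.62 ± 0.14, adjusted p = 0.0318). Their median change was 0.07. Of 16 ERK-side kinases and nuclear factors, 0 were called, with a median of -0.17. Of 32 further early genes, ATF3, a stress-induced factor, rose (0.51 ± 0.12), and CCND1, or cyclin D1, and RHOB fell (-0.61 ± 0.16 and -0.78 ± 0.21), with a median of 0.11. Of 10 further phosphatases and inhibitors, ERRFI1, an EGF receptor inhibitor, rose (0.38 ± 0.11), and DUSP9 and DUSP16 fell (-0.90 ± 0.17 and -0.48 ± 0.13), with a median of -0.06. The called genes that rose had probes of 38.3% GC and those that fell 45% to 60%, and after the correction for probe GC none was called. With S154A 0 genes of these 4 lists were called. DUSP9, a cytoplasmic ERK phosphatase, was also lower with S154D than with S154A in CDCA, by -1.07 ± 0.17 (adjusted p = 0.031), the only such call in the 4 lists, and by -0.92, no longer called, after the correction for probe GC.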

How the data were processed

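The deposited scanner files hold, per the file headers, an intensity for each of 45015 features that Agilent Feature Extraction 9.5.3.1 had background-subtracted, whereas the submitters' processing notes name version 12. The authors' deposited series values are the same intensities. Outlier spots, 66 to 196 per array, were removed, log2 values were taken of the deposited intensity, and the array's 75th percentile was subtracted. Spots were averaged into 41000 probes. A probe was kept if every array of some group, 3 of 3, read it well above background (26898 probes), and the brightest stood for each of 20355 genes, 113 of which lacked a value on 1 or more arrays.

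One mean per group was fitted to 12 arrays with limma (version 3.58.1, R 4.3.3), tables being read with the package data.table (version 1.17.8), two-sided, with Benjamini-Hochberg adjustment over 20355 genes within each comparison. A gene was called at an adjusted p under 0.05. Per-array values are given for called members and for those with the smallest p, up to 8 per comparison. JUN, KLF6, DUSP6 and the second probes of IER5 and KLF6 were named after their values were seen. The correction for probe GC subtracted, on each array, a loess curve (span 0.5) of log2 level on GC.

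The members, lists and tests were chosen with earlier results of these data known. Alternatives were background correction, scaling, filter, probe choice, slide or replicate number as a block, GC correction, variance model and arrays left out. File names place the arrays on 4 slides, and only slide 3 held all groups. On data simulated for CDCA against DMSO with S154D, 200 of 20355 genes were changed, fewer than the 2073 called in the data. Of the changed genes, 0% were called at a change of 0.5 log2 units, 65% at 1 and 85.5% at 2. Same-numbered arrays correlated at -0.35 to 0.51 in their deviations, with a median of 0.09 (9 of 18 pairs over 0.1). Arrays of unlike number correlated at -0.48 to 0.49, with a median of -0.05 (15 of 36 over 0.1). Deviations within groups of 3 arrays cannot settle whether the replicate numbers pair the arrays. The main fit did not use the numbers, and an alternative took them as a block.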

Additional observations from a re-analysis of the deposited data

How the results depend on the processing

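For CDCA against DMSO with S154D, 2 members were called. The count was 0 with the series table without scaling, with no filter on dim probes and with only the 6 arrays of the 2 groups. It was also 0 with slide as a block, with or without correction for probe GC, with that correction alone, and without slide 1 or 3. In these settings 0 or 1 of all genes tested were called. The count of members was 1 with normexp background correction, beside 1532 genes in all. It was 1 without the 3 arrays where JUN and KLF6 were low, an alternative chosen after seeing the data, beside 1718 genes. It was 3 with quantile normalization (2483 genes), with centring on the median of probes detected on all arrays (2225) and with the mean of all kept probes (1875). It was also 3 with only probes well above background on all 12 arrays (2591) and with an intensity trend (2586), and 4 without slide 4 (2217). Leaving out 1 array at a time gave 0 to 4 members, beside 0 to 2173 genes. With the replicate block, with or without correction for probe GC, the count was 0 (adjusted p = 0.0682 for EGR2 and 0.0649 for KLF10), and the block changed no other count of members. Over these alternatives the count of all genes called ranged from 0 to 2591, beside 2073. The other 4 comparisons kept 0 members called under every alternative, while their counts over all genes ranged from 0 to 31 with S154A, 0 to 285 between the mutants in CDCA, 0 to 1 in DMSO and 0 to 118 for the difference between the responses. No called value changed sign. The cause of these shifts was not tested. Without scaling the median of all genes lay at 0.18 with S154D. In the simulation, with 3 arrays per group and 200 genes changed, changes of 0.5 log2 units were not called. In the data, where 2073 genes were called with S154D, some smaller changes were called, such as 0.38 for ERRFI1 and -0.48 for DUSP16. The simulation therefore does not set the smallest change that could be called in the data.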
